A study of Mus musculus with 18 samples.

Results

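Colorectal tissue from azoxymethane-treated mice exposed to cigarette smoke was compared here with tissue from mice given azoxymethane alone. The comparison takes the 6 libraries of the group named GF-AOMS and the 6 of the group named GF-AOM, 12 of the 18 libraries of the study, and covers all 10897 genes of its table. Azoxymethane (AOM) is a methylating carcinogen that gives mice colon tumours, GF means germ-free, and the final S marks the smoke. By sample characteristics GF-AOM are germ-free mice with AOM-induced colorectal cancer, GF-AOMS are germ-free mice with the same cancer model and cigarette smoke, and the third group, Control, are wild-type mice given AOM. The treatment protocol calls the same groups AOM, AOM with smoke and normal control, and the housing text names a specific pathogen-free facility, so smoke is what separates GF-AOMS from GF-AOM under either description. All mice were C57BL/6J males aged 10 weeks, and the labels place every library in 1 batch. They give no dose or duration of smoke, do not say whether tumour or adjacent mucosa was taken, and never state that each library is a separate mouse, so the p-values reflect only the spread among these libraries, which may be technical.

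Cigarette smoke carries polycyclic aromatic hydrocarbons, aldehydes and oxidants. The hydrocarbons bind the aryl hydrocarbon receptor (AhR), which pairs with ARNT and switches on Cyp1a1, Cyp1b1, Ahrr and Tiparp, while electrophiles and oxidants free the transcription factor NRF2 from KEAP1, which raises glutathione synthesis, Nqo1 and Hmox1. In the colon, epithelium, resident macrophages, plasma cells, vessels and muscle all contribute RNA to a tissue sample, so in bulk libraries fewer cells of a type and less RNA per cell cannot be told apart.

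Sequencing depth was similar in both groups. Totals ran from 50.75 M to 65.36 M counts in GF-AOM and from 48.95 M to 55.97 M in GF-AOMS (M, mega). Colon markers were present throughout, with all 20 colonocyte and all 15 goblet cell markers measured and Muc2, the main mucin of the mucus layer, at 2560 to 5833 CPM (counts scaled to a common library total, after TMM scaling, which corrects for library make-up). GF-AOMS replicate 2 stood apart from the other libraries, with the highest share of counts from ribosomal protein genes (26.64% against 7.386% to 19.59% elsewhere), the lowest TMM factor (0.7269), the lowest Hoxb13 (19.67 CPM) and the highest mean smooth muscle level (9.295 log2 CPM). Hoxb13, a homeobox gene of the most distal colon, ran from 42.61 to 186.3 CPM in GF-AOM and from 19.67 to 290.6 CPM in GF-AOMS. Between groups, none of 6 library measures passed two-sided exact permutation tests (adjusted p from 0.909 to 0.935, n = 6 a group). Many results that turn on GF-AOMS replicate 2 or another single library are given without it where they are described.

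**Figure D1:**
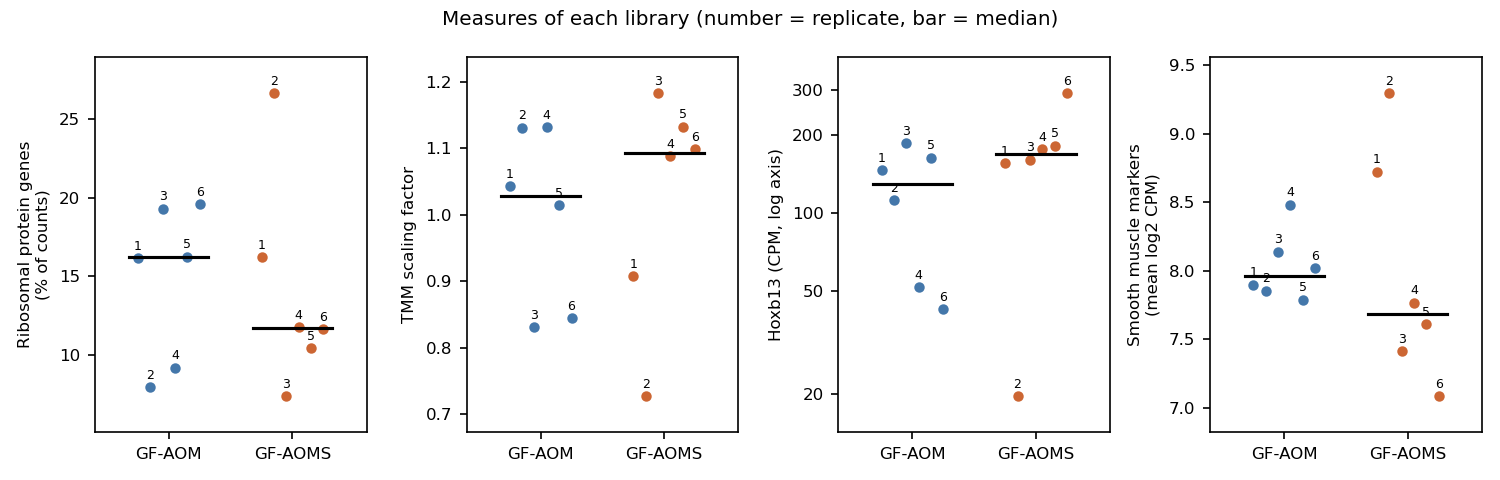
Measures of each library, from left to right the percent of counts from ribosomal protein genes, the TMM scaling factor, Hoxb13 in CPM on a log axis and the mean log2 CPM of 15 smooth muscle markers, for GF-AOM (blue) and GF-AOMS (orange). Numbers are replicates and bars are medians, and GF-AOMS replicate 2 has the highest or the lowest value in every panel while the groups overlap in all of them.

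No gene passed the test between smoke and no smoke. By edgeR's quasi-likelihood test with Benjamini-Hochberg adjustment over 10897 genes, 0 genes (0%) had an adjusted p under 0.05 in either direction, and the smallest adjusted p was 0.712. At an unadjusted p under 0.05 there were 131 genes (1.2%), of which 61 (0.56%) were higher and 70 (0.642%) lower in GF-AOMS. That share is below the 0.05 of genes that evenly spread p-values would give, so the count is no sign of a difference by itself. The share depended on the test, and limma voom with sample quality weights put it above 0.05, with 953 of 10897 genes. The edgeR p-values ran high, so a gene group below without any under 0.05 says little. DESeq2 on the same counts called 2 genes, both higher. Values of the 6 GF-AOMS libraries lay wholly above or below the 6 GF-AOM libraries for 8 genes (0.0734%), 7 above (0.0642%) and 1 below (0.00918%). The fitted log2 difference, GF-AOMS minus GF-AOM, was above 0 for 54.5% of genes and below 0 for 45.5%, with a median of 0.014, which is the background for every gene group below.

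Most genes had differences smaller than their spread between replicates. The absolute log2 difference was under the within-group SD for 10432 genes (95.7%), with a median SD of 0.31. With 6 libraries a group this would hold for most genes with no difference at all. A moderate difference can lie under the SD too, so the share does not measure what smoke did. For 9890 genes (90.8%) the 95% interval of the difference lay inside a 2-fold change either way. Only 47 genes had a fitted difference beyond 2-fold. Of these, 5 higher and 22 lower ones were immunoglobulin variable or joining segments, whose use differs from mouse to mouse. Outside that class, clone names and pseudogenes, the higher genes were Spp1, Rhox5, Uimc1, Ccl2, Mcpt1, Mcpt2, Cxcl10, Zc3h11a, Tgtp1, Rnu3b1 and Rnu3b3, and the lower ones Ramp2, Cyp2c55, Chac1, B3gnt6, H2ac18, S100g and Iglc3. The plot of difference against level shows these genes at the edge of a narrow band.

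**Figure D2:**
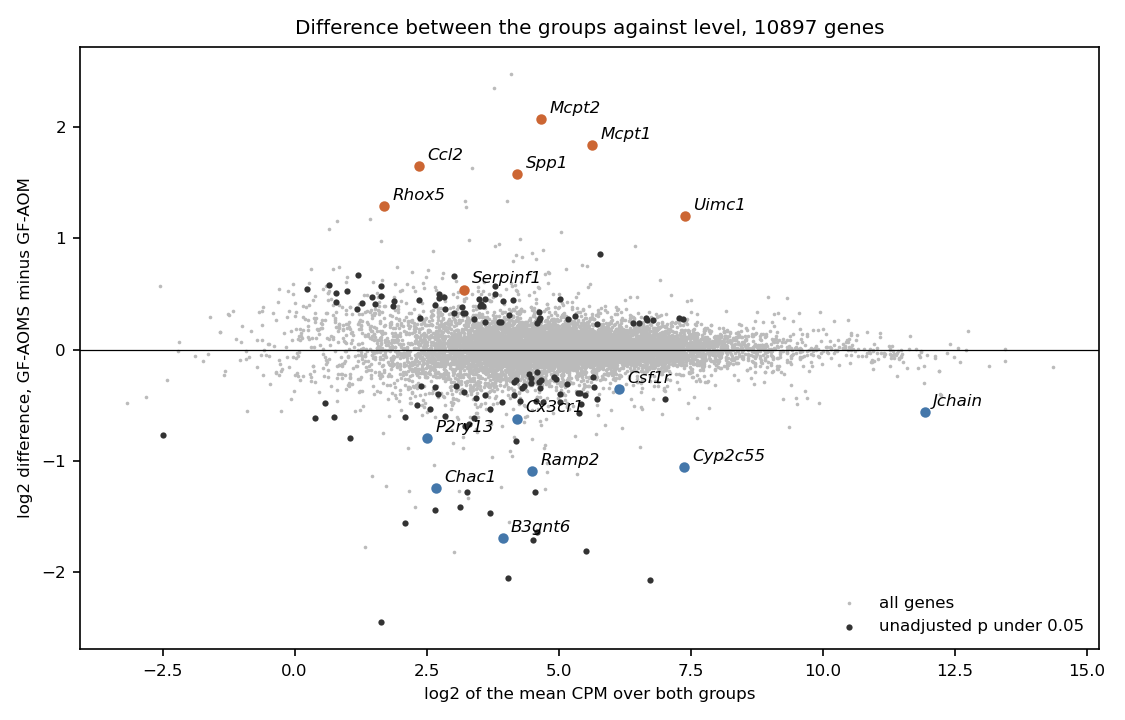
Each point is a gene, with the log2 of its mean CPM over both groups on the horizontal axis and the fitted log2 difference, GF-AOMS minus GF-AOM, on the vertical axis. Dark points have an unadjusted p under 0.05 (131 of 10897), none passed adjustment, and the named genes reach from -1.69 for B3gnt6 to 2.07 for Mcpt2.

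Spp1, Rhox5, Uimc1 and Ccl2 had the smallest p among the named genes of the higher side. Spp1 (ENSMUSG00000029304, chromosome 5, 104435118 to 104441050) encodes osteopontin, a secreted matrix protein and cytokine made by macrophages and tumour tissue. It lay at 6.48, 8.58 and 14.6 CPM (lowest, median and highest library) in GF-AOM and at 16.0, 26.0 and 46.0 CPM in GF-AOMS. Every smoke library exceeded every other one, though GF-AOMS replicate 1 at 16.0 CPM stood close to GF-AOM replicate 3 at 14.6 CPM, and the 6 Control libraries (5.55 to 13.5 CPM) covered the same range as GF-AOM. The log2 difference was 1.58 (SE 0.27, 95% interval 1.00 to 2.15, edgeR adjusted p = 0.712). Without GF-AOMS replicate 2 it was 1.38, and leaving out any 1 library kept it between 1.38 and 1.74.

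Rhox5 (ENSMUSG00000095180, chromosome X, 37804842 to 37808876), a reproductive homeobox gene best known from testis and placenta, was at 0.992, 2.03 and 2.36 CPM in GF-AOM and 2.95, 3.98 and 7.78 CPM in GF-AOMS. The groups did not overlap, and Control libraries spanned 1.45 to 2.22 CPM. Its log2 difference was 1.29 (SE 0.27, edgeR adjusted p = 1; higher in 6 of 6 libraries), and 1.07 without GF-AOMS replicate 2. Other genes of DNA methylation and the germline could be compared with it: 5 more of an 18-gene list were measured, all on the positive side, from 0.04 for Tet3, which oxidises methylated cytosine, to 0.33 for Dnmt1, the maintenance methyltransferase. None of those 5 had an unadjusted p under 0.05. Counting Rhox5, 5 of the 6 were above 0 without GF-AOM replicate 3, GF-AOM replicate 6 or GF-AOMS replicate 3.

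Uimc1 (ENSMUSG00000025878, chromosome 13, 55027880 to 55100300) encodes RAP80, which brings the BRCA1-A complex to ubiquitin at DNA breaks. It was by far the most abundant of the 4, at a median of 16.9 FPKM (fragments scaled for transcript length and depth) in GF-AOM and 37.96 FPKM in GF-AOMS, where Spp1 had 4.48 and 15.9 FPKM. In CPM it lay at 80.5, 91.2 and 142 in GF-AOM and at 123, 200 and 466 in GF-AOMS. GF-AOMS replicate 2 alone reached 466 CPM, and GF-AOMS replicate 1 (123 CPM) fell within the GF-AOM range, below GF-AOM replicates 3 and 6. The log2 difference was 1.20 (SE 0.28, edgeR adjusted p = 1; 6 of 6 libraries above the GF-AOM median) and 0.88 without GF-AOMS replicate 2. Its partners in the BRCA1-A complex lay near 0, with the deubiquitinase Brcc3 at -0.13, Babam1 at 0.05 and Babam2 at 0.12.

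Ccl2 (ENSMUSG00000035385, chromosome 11, 82035571 to 82037453), the chemokine that draws monocytes out of bone marrow and blood, was at 0.836, 2.20 and 5.43 CPM in GF-AOM and 4.25, 6.64 and 13.8 CPM in GF-AOMS. Only GF-AOM replicate 6 overlapped the smoke libraries. Its log2 difference was 1.64 (SE 0.42, edgeR adjusted p = 1; 6 of 6 libraries above the GF-AOM median), and 1.40 without GF-AOMS replicate 2. The level is low, so single libraries rest on few reads relative to Uimc1.

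**Figure D3:**
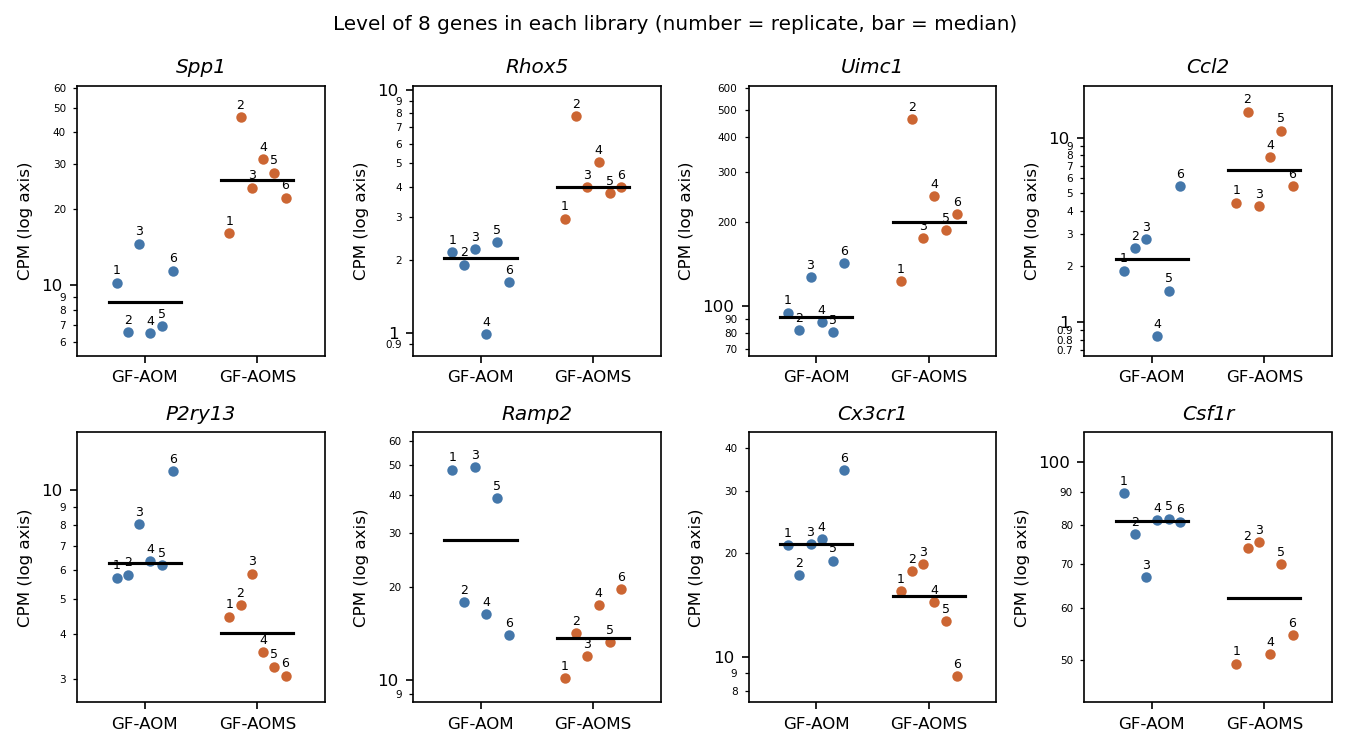
CPM on a log axis of 8 genes in each GF-AOM (blue) and GF-AOMS (orange) library, with replicate numbers and the group median as a bar. Spp1 and Rhox5 do not overlap between groups, while Uimc1, Ccl2, P2ry13, Ramp2, Cx3cr1 and Csf1r overlap in 1 or more libraries.

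The 250 bases upstream of the start of leading genes were taken from RefSeq (GRCm38.p6) to show what lies before them. Of 15 leading genes 9 had an entry and 8 had a start within 100 bases of the table's. Each window was searched on both strands for the AhR core GCGTG, the NRF2 motif TGACNNNGC, the AP-1 motif TGANTCA, the NF-kB motif GGNNTTTCC and the PU.1 motif GAGGAAGT, a factor of myeloid cells. These occur in 28.2%, 10.2%, 6.75%, 4.93% and 2.44% of all 32851 windows of that length, so a match is a description of the letters and nothing more. Spp1 (chr5:104434861-104435110, plus strand) and the myeloid gene Cd300ld5 (chr11:115037691-115037940, minus strand) each held 1 PU.1 match. P2ry13 (chr3:59210883-59211132, minus strand) held 3 AhR cores. Uimc1 (chr13:55100301-55100550, minus strand) and Cx3cr1 (chr9:120068297-120068546, minus strand) held none of the 5, as did Serpinf1, Cxcl12 and Igsf23. The windows are given 5′ to 3′ on the gene's strand with matches in capitals, the first 2 for genes on the higher side and the other 3 for genes on the lower side.
Spp1: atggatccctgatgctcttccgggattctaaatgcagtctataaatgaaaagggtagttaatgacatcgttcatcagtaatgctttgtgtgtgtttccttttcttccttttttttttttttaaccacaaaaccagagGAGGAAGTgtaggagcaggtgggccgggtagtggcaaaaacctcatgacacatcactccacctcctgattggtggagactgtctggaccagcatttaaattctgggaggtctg
Uimc1: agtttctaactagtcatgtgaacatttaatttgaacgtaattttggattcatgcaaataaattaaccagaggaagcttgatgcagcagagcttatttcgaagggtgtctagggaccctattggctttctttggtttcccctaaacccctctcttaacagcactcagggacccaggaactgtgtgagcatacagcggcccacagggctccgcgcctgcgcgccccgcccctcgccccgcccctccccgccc
P2ry13: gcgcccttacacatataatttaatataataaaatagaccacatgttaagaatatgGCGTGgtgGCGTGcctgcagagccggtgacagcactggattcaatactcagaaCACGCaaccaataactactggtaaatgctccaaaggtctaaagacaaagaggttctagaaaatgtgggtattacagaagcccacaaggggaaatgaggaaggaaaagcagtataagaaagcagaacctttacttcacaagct
Cx3cr1: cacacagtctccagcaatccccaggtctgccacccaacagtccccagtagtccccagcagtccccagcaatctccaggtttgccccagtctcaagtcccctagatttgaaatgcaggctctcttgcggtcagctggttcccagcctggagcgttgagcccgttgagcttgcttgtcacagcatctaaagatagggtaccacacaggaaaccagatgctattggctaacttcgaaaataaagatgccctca
Cd300ld5: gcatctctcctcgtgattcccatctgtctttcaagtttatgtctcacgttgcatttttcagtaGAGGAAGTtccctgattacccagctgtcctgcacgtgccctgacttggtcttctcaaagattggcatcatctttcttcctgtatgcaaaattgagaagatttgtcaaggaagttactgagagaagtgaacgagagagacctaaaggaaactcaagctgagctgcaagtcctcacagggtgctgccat

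Other genes whose groups did not overlap had smaller differences. Serpinf1, which encodes the anti-angiogenic pigment epithelium-derived factor, lay at 5.41 to 9.18 CPM in GF-AOM and 9.56 to 15.5 CPM in GF-AOMS (log2 difference 0.54, SE 0.17, edgeR adjusted p = 1). GF-AOMS replicate 2 held the 15.5 CPM, and the other 5 smoke libraries stood at 10.99 CPM or below, close to the top of GF-AOM. Gpatch3, for a G-patch domain protein, differed by 0.23 (SE 0.13), with 3.54 to 5.12 CPM in GF-AOM against 5.13 to 5.86 CPM in GF-AOMS. On the lower side the only such gene was the mitochondrial transfer RNA mt-Tr, at 0.174 to 0.271 CPM in GF-AOM and 0.0813 to 0.172 CPM in GF-AOMS (-0.77, SE 0.26), a level of a handful of reads. The other 3 non-overlapping genes are clone names or pseudogenes and are not named. Dph2, for an enzyme of diphthamide synthesis, differed by 0.33 (SE 0.12), with 6.28 to 8.02 CPM in GF-AOM and 7.98 to 9.78 CPM in GF-AOMS, so the groups met at their edges.

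Spp1 stood apart from the receptors of its protein. Among 15 measured osteopontin receptors and matrix proteases, 5 were above 0 and 10 below, with a median of -0.08 and none at an unadjusted p under 0.05. Cd44, a hyaluronan and osteopontin receptor, was at 45.7 to 88.4 CPM in GF-AOM and 53.3 to 73.9 CPM in GF-AOMS (-0.06, SE 0.16). The integrin subunits Itgav (-0.08, SE 0.13) and Itgb1 (-0.08, SE 0.11) were as close to 0. Mmp9, a gelatinase of neutrophils and macrophages, had the highest value of the list at 0.71 (SE 0.36), with GF-AOMS replicate 2 at 15.8 CPM and the other smoke libraries lower. Without that library it was at 0.32.

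Cytokine and chemokine genes lay on both sides of 0, and the side most of them took depended on single libraries. Of 17 measured, 7 were above 0 and 10 below, with a median of -0.06. Without GF-AOM replicate 6, 13 were above 0 and the median was 0.30. It was 0.13 with GF-AOM replicate 3 left out and -0.21 with GF-AOMS replicate 2 left out. Leaving out GF-AOMS replicate 3, 4 or 6 put 11 of the 17 above 0. In all 12 libraries 3 had an unadjusted p under 0.05: Ccl2 on the higher side, Cxcl12 and Ccl11 on the lower. Cxcl12, the stromal chemokine that retains CXCR4-bearing cells, was at 118 to 196 CPM in GF-AOM and 87.0 to 140 CPM in GF-AOMS (-0.44, SE 0.15, edgeR adjusted p = 1; 6 of 6 libraries below the GF-AOM median). The eosinophil attractant Ccl11 had medians of 53.7 and 39.6 CPM (-0.41, SE 0.17). Ccl7 and Ccl8, which lie beside Ccl2 in a chemokine cluster, were at -0.06 (SE 0.65) and -0.12 (SE 0.73). The interleukin Il1b differed by 0.68 (SE 0.56) with all 6 smoke libraries and by 0.09 without GF-AOMS replicate 2, which reached 23.1 CPM; without GF-AOM replicate 6 it was 1.09. Cxcl10, an interferon-induced chemokine of T cells, had a fitted difference of 1.28 (SE 0.68), but its lowest, median and highest library were at 2.62, 5.10 and 10.2 CPM in GF-AOM and 2.91, 5.41 and 50.8 CPM in GF-AOMS, so the group medians were close. The NF-kB and prostaglandin genes were split, 8 above and 9 below 0 with a median of -0.06, and none of 17 had an unadjusted p under 0.05. Without GF-AOM replicate 5, 12 of them were above 0 with a median of 0.09.

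Several of the 9 named genes with the smallest p on the lower side are known from macrophages. P2ry13 (chromosome 3, 59207892 to 59210882), an ADP receptor of macrophages and microglia, came first. It lay at 5.73, 6.28 and 11.3 CPM in GF-AOM and at 3.07, 4.02 and 5.88 CPM in GF-AOMS. Only GF-AOMS replicate 3 reached into the GF-AOM range, and GF-AOM replicate 6 was the highest of all. Its log2 difference was -0.79 (SE 0.22, edgeR adjusted p = 1; 6 of 6 libraries below the GF-AOM median), and -0.63 without GF-AOM replicate 6. Across Control it was 2.29 to 7.80 CPM, a range that covers most of both groups.

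Cx3cr1, the fractalkine receptor that marks resident intestinal macrophages, was at 17.2, 21.1 and 34.5 CPM in GF-AOM and 8.83, 14.97 and 18.5 CPM in GF-AOMS (-0.62, SE 0.20, edgeR adjusted p = 1; 6 of 6 below the GF-AOM median). GF-AOM replicate 6 was far above the others of its group, and without it the difference was -0.46. Csf1r, the receptor on which macrophage survival depends, was at 66.8, 81.3 and 89.6 CPM in GF-AOM and 49.4, 62.2 and 75.4 CPM in GF-AOMS (-0.36, SE 0.13, edgeR adjusted p = 1). The mannose receptor Mrc1 had medians of 48.4 and 30.9 CPM (-0.57, SE 0.21). Other genes with a small p were Cd300ld5, of a family of myeloid immunoglobulin-like receptors with close relatives whose reads the counting could split (-0.79, SE 0.25), and the cytoskeletal adaptor Pstpip2 (-0.54, SE 0.17). Maf, a transcription factor of macrophages among other cells, was at -0.46 (SE 0.16). Igsf23, an immunoglobulin superfamily gene, was at -0.82 (SE 0.29) and at -0.43 without GF-AOM replicate 6, which held 51.0 CPM.

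Over the whole list of macrophage and monocyte markers, 17 of 19 measured members were below 0 (10.5% above 0, against 54.5% of all genes) with a median of -0.32, and 3 of the 19 had an unadjusted p under 0.05. None passed adjustment. The complement genes C1qa, C1qb and C1qc were at -0.28 (SE 0.30), -0.33 (SE 0.29) and -0.38 (SE 0.27), and Adgre1, which encodes F4/80, at -0.54 (SE 0.34). Cd14, the lipopolysaccharide co-receptor, was above 0 at 0.30 (SE 0.18), and Lyz2 was at 0.06 (SE 0.39). The summed level of the list ran from 2660 to 4000 CPM in GF-AOM and from 2690 to 4620 CPM in GF-AOMS, with no marker at 0 in any library. The average over these markers was 0.479 log2 units above the overall mean in GF-AOMS replicate 2 and below that mean in the other 5 smoke libraries, and without it the median was -0.50 with 18 of 19 below 0. Without GF-AOM replicate 6 the median was -0.15 with 15 of 19 below 0. Spp1, whose product macrophages also make, lay on the other side from most of these markers; the part of macrophage content in its difference was not tested.

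Among vessel genes most values lay below 0, though less so without 1 library. Ramp2 (chromosome 11, 101246028 to 101248250), the partner of the adrenomedullin receptor in endothelium, was at 14.0, 28.5 and 49.2 CPM in GF-AOM and 10.1, 13.7 and 19.7 CPM in GF-AOMS (-1.09, SE 0.33, edgeR adjusted p = 1; 6 of 6 below the GF-AOM median). GF-AOM split into 3 libraries at 39.0 to 49.2 CPM and 3 at 14.0 to 17.9 CPM, the second set inside the smoke range. Control libraries were at 10.4 to 23.6 CPM, like the smoke group. Acvrl1, the endothelial receptor ALK1, was at 29.2 to 37.4 CPM in GF-AOM and 25.6 to 31.7 CPM in GF-AOMS (-0.26, SE 0.09). Of 13 endothelial markers 12 were below 0 with a median of -0.20, Ramp2 alone at an unadjusted p under 0.05, and the general marker Pecam1 was at -0.09 (SE 0.21). Without GF-AOM replicate 1, Ramp2 was at -0.92, Pecam1 at 0.08 and the list at a median of -0.04 with 5 of 13 above 0. Without GF-AOMS replicate 2 or 3 the list was at -0.13. The summed endothelial level was 289 to 522 CPM in GF-AOM and 261 to 385 CPM in GF-AOMS.

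**Figure D4:**
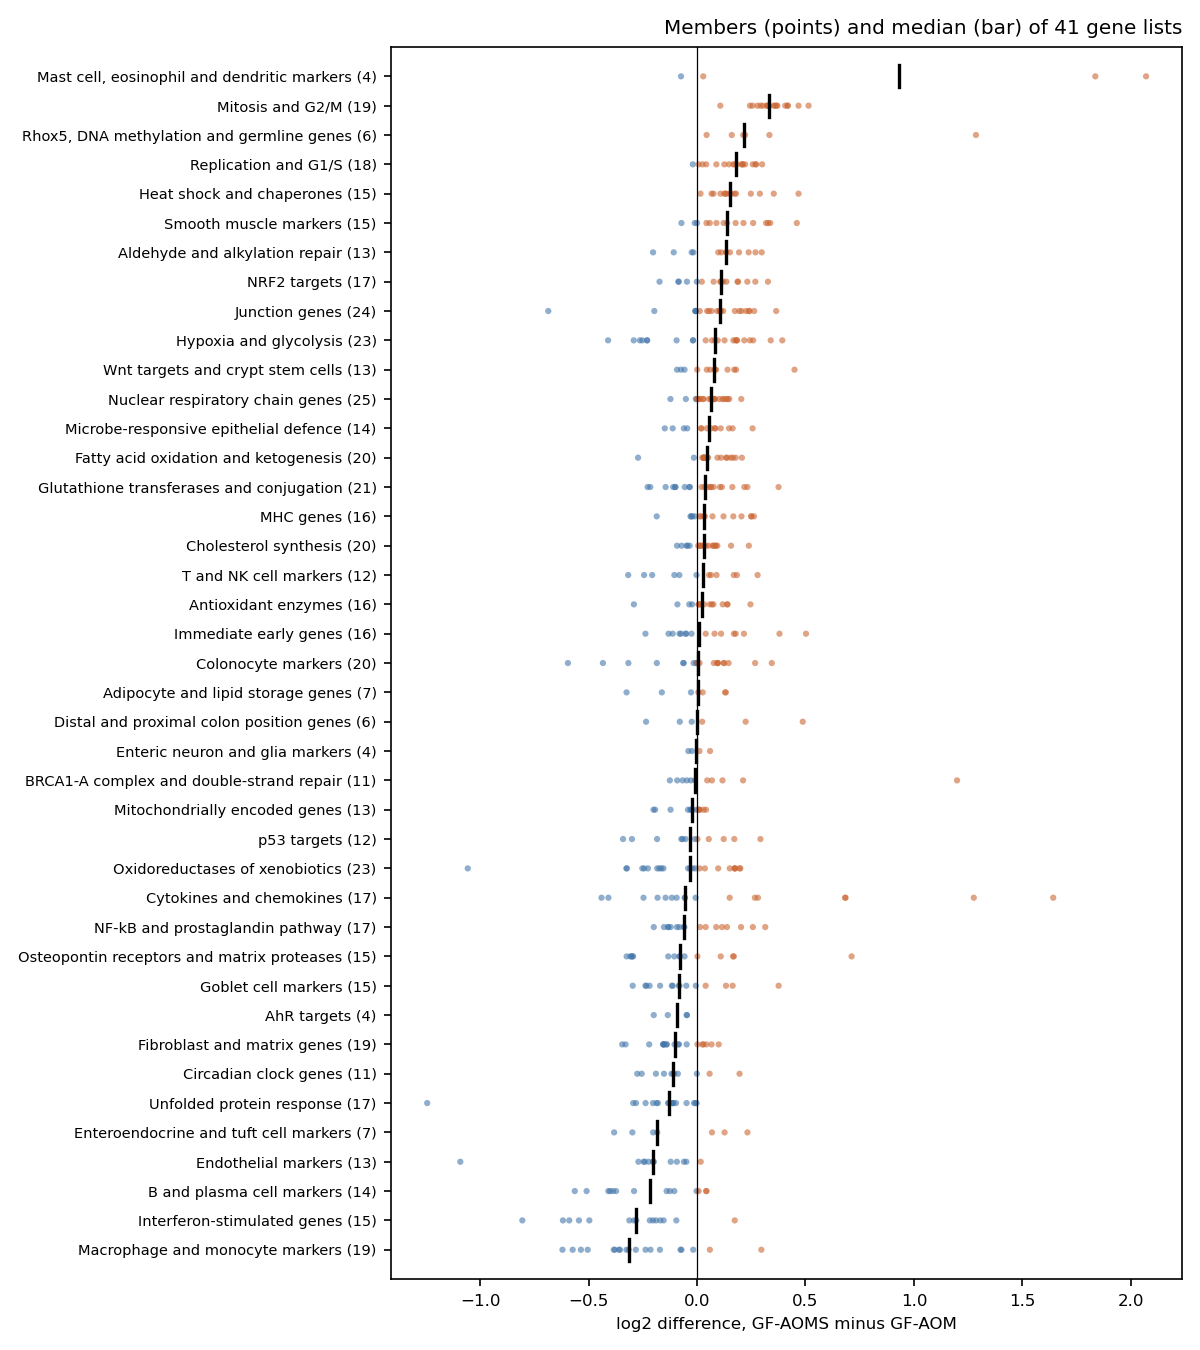
Log2 difference, GF-AOMS minus GF-AOM, of the measured members (points, orange above and blue below 0) and the median (bar) of 41 gene lists, ordered by median, with the number of measured members in brackets. Medians reach from -0.32 for macrophage and monocyte markers to 0.93 for the 4 mast cell, eosinophil and dendritic markers, and no member of any list passed adjustment.

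The measured genes that respond to the chemistry of smoke differed little. Of 8 AhR targets and partners, 4 were measured, all slightly below 0: Ahr at -0.20 (SE 0.13), the ADP-ribosyltransferase Tiparp at -0.13 (SE 0.13), Arnt at -0.05 (SE 0.12) and Nqo1 at -0.05 (SE 0.19). Tiparp ran from 23.7 to 34.3 CPM in GF-AOM and from 21.04 to 31.8 CPM in GF-AOMS, and the interval of each of the 4 lay inside 2-fold. Cyp1a1, Cyp1b1, Ahrr and Aldh3a1 are not analysed here, so Tiparp and Nqo1 are the only targets beside Ahr and its partner Arnt. Every gene analysed here reaches an FPKM of 1 in 15 or more of the 18 libraries. A gene expressed in the 6 GF-AOMS libraries alone would be left out, so these values do not describe the AhR response as a whole. Leaving out GF-AOM replicate 1, GF-AOMS replicate 2 or GF-AOMS replicate 6 put 1 of the 4 above 0. Ahr was lowest in GF-AOMS replicate 2, at 11.7 CPM.

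NRF2 targets were above 0 in 12 of 17 members (70.6%, against 54.5% of all genes) with a median of 0.11, and none had an unadjusted p under 0.05. Leaving out any 1 library kept 11 to 14 of them above 0, and the median was 0.07 without GF-AOM replicate 1. Hmox1, the haem-degrading enzyme, was highest at 0.33 (SE 0.20; 0.18 without GF-AOMS replicate 2), with 10.7, 12.5 and 20.6 CPM in GF-AOM and 13.9, 14.6 and 25.2 CPM in GF-AOMS. Glutathione reductase Gsr was at 0.23 (SE 0.13), Gclm of glutathione synthesis at 0.08 (SE 0.11) and Nqo1 at 23.2 to 48.6 against 22.8 to 48.3 CPM. All 17 intervals lay inside 2-fold. The summed level was 2710 to 3440 CPM in GF-AOM and 3170 to 3520 CPM in GF-AOMS, so the groups overlapped.

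Detoxifying enzymes gave the same picture with 1 exception. Glutathione transferases and conjugating enzymes were above 0 in 12 of 21 members (median 0.04) and antioxidant enzymes in 12 of 16 (median 0.03; 6 of 16 without GF-AOMS replicate 1 or 2), none with an unadjusted p under 0.05. Oxidoreductases of foreign compounds were above 0 in 9 of 23 (median -0.03), and in 13 of 23 without GF-AOM replicate 4. The exception was Cyp2c55, a cytochrome P450 abundant in mouse colon, at 71.3, 207 and 422 CPM in GF-AOM and 27.3, 111 and 196 CPM in GF-AOMS (-1.06, SE 0.43, edgeR adjusted p = 1; 6 of 6 below the GF-AOM median). GF-AOMS replicate 5 was the lowest at 27.3 CPM and GF-AOM replicate 4 the highest at 422 CPM. Its relative Cyp2c65 was at -0.32 (SE 0.43).

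In the lists of DNA damage genes only Uimc1 had an unadjusted p under 0.05. Among p53 targets 5 of 12 were above 0 with a median of -0.03: Cdkn1a, the cell cycle inhibitor p21, was at 0.00 (SE 0.21), Mdm2, the ligase that degrades p53, at -0.18 (SE 0.09) and Bax at 0.05 (SE 0.21). The p53 targets reached from -0.34 for Trp53inp1 to 0.29 for Ddb2, and all 12 intervals lay inside 2-fold. Genes for the repair of alkylated and oxidised bases were above 0 in 9 of 13 (median 0.13), with the mismatch repair gene Msh6 highest at 0.30 (SE 0.25) and the glycosylases Mpg at -0.02 (SE 0.12) and Ogg1 at 0.11 (SE 0.16). None of either list had an unadjusted p under 0.05.

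Proliferation genes shared a direction without any member passing. All 19 measured mitosis genes were above 0 with a median of 0.33, and 17 of 18 replication genes were, with a median of 0.18. None had an unadjusted p under 0.05. Without GF-AOMS replicate 3 the mitosis genes were all still above 0 but their median was 0.15, and without GF-AOM replicate 5 it was 0.51. The replication genes had a median of 0.11 without GF-AOMS replicate 5, and 14 of 18 were above 0 without GF-AOM replicate 1. Mki67, the marker of cycling cells, was at 48.3, 60.8 and 105 CPM in GF-AOM and 41.4, 79.5 and 154 CPM in GF-AOMS (0.36, SE 0.32; 0.12 without GF-AOMS replicate 3), so that the smoke group held both the lowest and the highest library. Aurkb, a mitotic kinase, had the highest value at 0.51 (SE 0.30; 0.28 without GF-AOMS replicate 3) and Rrm2, for the ribonucleotide reductase subunit, was at 0.27 (SE 0.13). On average over the mitosis genes, GF-AOMS replicates 3 and 5 were the highest of all 12 libraries after centring (0.905 and 0.520 log2 units above the mean), and GF-AOMS replicates 1 and 2 were at -0.318 and -0.346, within the lower part of the GF-AOM libraries. Members measured in the same libraries are not separate observations, so their shared sign carries no p-value.

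Myc, a Wnt target that drives growth, was at 20.5, 28.0 and 35.6 CPM in GF-AOM and 29.5, 35.2 and 56.9 CPM in GF-AOMS (0.45, SE 0.18, edgeR adjusted p = 1; 6 of 6 above the GF-AOM median). GF-AOMS replicate 5 stood far above the rest at 56.9 CPM, and without it the difference was 0.30. Myc had the highest value among 13 measured Wnt targets and crypt stem cell genes. Of the 13, 10 were above 0 (76.9%, against 54.5% of all genes), with a median of 0.08. Axin2 was at 0.08 (SE 0.32), Ascl2 at -0.07 (SE 0.41) and Sox9 at 0.18 (SE 0.27), errors too wide to set them apart from Myc. Only 6 of the 13 were above 0 when replicate 3 or 6 of GF-AOM, or 5 or 6 of GF-AOMS, was left out. Lgr5 is not analysed here.

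Chaperone genes and the unfolded protein response leaned in opposite directions. Heat shock proteins and other chaperones of the cytosol and mitochondria were above 0 in 15 of 15 members (median 0.15), with the small heat shock protein Hspb1 at 26.9, 33.7 and 43.8 CPM in GF-AOM and 24.4, 48.2 and 72.0 CPM in GF-AOMS (0.47, SE 0.22). GF-AOMS spanned both ends of that range, and without replicate 2 the difference was 0.30. Hsp90aa1 was at 0.25 (SE 0.16) and the inducible Hspa1b at 0.35 (SE 0.31). No member had an unadjusted p under 0.05, and without GF-AOMS replicate 6, 13 of 15 were above 0 with a median of 0.09.

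The unfolded protein response of the endoplasmic reticulum was below 0 in all 17 measured members, with a median of -0.13. Chac1, a glutathione-degrading enzyme induced by ATF4, was at 4.21, 7.42 and 19.6 CPM in GF-AOM and 1.04, 3.54 and 7.40 CPM in GF-AOMS (-1.24, SE 0.50, edgeR adjusted p = 1; 6 of 6 below the GF-AOM median). GF-AOM replicate 2 reached 19.6 CPM, and without it the difference was -0.86. Atf4 itself was at -0.28 (SE 0.14), Ddit3 at -0.29 (SE 0.28), Xbp1 at -0.20 (SE 0.14) and the chaperone Hspa5 at -0.10 (SE 0.20). Without GF-AOM replicate 2, 5 of the 17 were above 0 with a median of -0.07, and without GF-AOM replicate 3 the median was -0.08. Without GF-AOMS replicate 1, 2 or 4, 3 of the 17 were above 0, with a median of -0.20 when it was replicate 1. Plasma cells rely on this pathway and their markers lay lower as well, with values given next; their part in these values was not tested.

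B and plasma cell markers were below 0 in 11 of 14 members (median -0.22), and none had an unadjusted p under 0.05. Jchain, which joins IgA dimers, was at 3085, 4284 and 6411 CPM in GF-AOM and 1490, 2428 and 6500 CPM in GF-AOMS (-0.56, SE 0.37). Igkc, the kappa light chain, was at -0.41 (SE 0.32) and Igha, the IgA heavy chain, at -0.40 (SE 0.42). The summed level had a group median of 15700 CPM without smoke and 8320 CPM with it, but GF-AOMS reached 24500 CPM at its highest, above every GF-AOM library. Without GF-AOMS replicate 2 Jchain was at -0.91 and the list at -0.36. With any 1 library left out the median of the list ran from -0.42 (GF-AOMS replicate 3 out) to -0.10 (GF-AOMS replicate 1 out).

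Mast cell proteases had large differences with large errors. Mcpt1 and Mcpt2, related proteases of mucosal mast cells whose reads the counting could split, lay at medians of 4.19 and 2.78 CPM in GF-AOM and 57.4 and 29.5 CPM in GF-AOMS. The log2 difference was 1.84 for Mcpt1 (SE 1.06) and 2.07 for Mcpt2 (SE 0.99), with edgeR adjusted p = 1 for both and 6 of 6 smoke libraries above the GF-AOM median. GF-AOM replicate 2 held 101 CPM of Mcpt1, more than 4 of the smoke libraries, while the other 5 of its group were at 0.684 to 16.4 CPM. Without that library the differences were 3.75 and 3.48, and without GF-AOMS replicate 2 they were 1.18 and 1.25. The 4 measured mast cell, eosinophil and dendritic markers had a median of 0.93, and of 1.79 without GF-AOM replicate 2. Kit, the receptor of mast cells and pacemaker cells of the gut, was at 0.03 (SE 0.29). Mcpt4, Cma1 and Cpa3 are not analysed here.

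The direction of some lists turned on 1 library. Smooth muscle markers were above 0 in 12 of 15 members (median 0.14), and in 0 of 15 without GF-AOMS replicate 2 (median -0.23). Their summed level was 5540 to 8530 CPM in GF-AOM and 3350 to 18600 CPM in GF-AOMS. T and NK cell markers were above 0 in 6 of 12, and in 0 of 12 without that library, when their median was -0.42. Without GF-AOM replicate 6 the turn was the other way, to 10 of 12 and a median of 0.34. MHC genes went from 11 of 16 above 0 to 3 of 16 without GF-AOMS replicate 2 (median -0.12). They went to 15 of 16 when GF-AOM replicate 6 was the library left out (median 0.23).

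Of the epithelial lists, colonocyte markers were close to the 54.5% of all genes and goblet cell markers below it. Colonocyte markers were above 0 in 11 of 20 members (median 0.01), in 6 without GF-AOM replicate 1 and in 14 without GF-AOMS replicate 2. The guanylin genes Guca2a (-0.43, SE 0.25) and Guca2b (-0.59, SE 0.38) were lowest, and Guca2b was at -0.05 without GF-AOM replicate 5, which held 65.4 CPM. Goblet cell markers were above 0 in 4 of 15 (26.7%, median -0.08). Their median was -0.24 without GF-AOMS replicate 1 or 2 and 0.02, with 8 of 15 above 0, without GF-AOM replicate 3. Among them were the mucin gene Muc2 at -0.30 (SE 0.21; -0.19 without GF-AOM replicate 4) and Atoh1, the secretory lineage factor, at 0.38 (SE 0.19). The antimicrobial lectins Reg3b and Reg3g, which respond to microbes and injury, varied more within groups than between them: Reg3b ran from 12.5 to 830 CPM in GF-AOM and from 25.1 to 478 CPM in GF-AOMS (-0.06, SE 0.98). Its difference was 2.07 without GF-AOM replicate 6 and -0.76 without GF-AOMS replicate 2.

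Junction genes were above 0 in 18 of 24 members (median 0.10), but the one with an unadjusted p under 0.05 lay below. Cldn4, a sealing claudin, was at 5.48, 11.7 and 16.6 CPM in GF-AOM and 3.69, 6.90 and 11.2 CPM in GF-AOMS (-0.69, SE 0.30, edgeR adjusted p = 1; 6 of 6 below the GF-AOM median). Tjp1, for ZO-1, was at 0.11 (SE 0.18) and Ocln at 0.01 (SE 0.17). Vegfa, the vascular growth factor, was the only gene of the hypoxia and glycolysis list at an unadjusted p under 0.05, with 24.5 to 34.8 CPM in GF-AOM and 19.0 to 26.8 CPM in GF-AOMS (-0.29, SE 0.12). That list was above 0 in 14 of 23 members.

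Interferon-stimulated genes were below 0 in 14 of 15 members (median -0.28), none with an unadjusted p under 0.05. The median of the list moved both ways with single libraries. It was between -0.51 and -0.47 when GF-AOMS replicate 1, GF-AOMS replicate 2 or GF-AOM replicate 1 was dropped. It was between -0.17 and -0.12 when the library dropped was replicate 3 or 6 of GF-AOM or replicate 4 or 6 of GF-AOMS. Ifit1, an RNA-binding antiviral protein, was at 2.87, 33.6 and 55.9 CPM in GF-AOM and 5.86, 12.6 and 33.0 CPM in GF-AOMS (-0.81, SE 0.59; -0.50 without GF-AOM replicate 2). The list's average was lowest in GF-AOM replicate 1 (-1.225 log2 units from the mean) and GF-AOMS replicate 4 (-1.004), so low libraries occurred in both groups.

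Metabolic genes had medians near 0, and in 3 of the 4 lists a larger share was above 0 than the 54.5% of all genes. Fatty acid oxidation genes were above 0 in 18 of 20 members (median 0.04, 19 of 20 intervals inside 2-fold), and in 14 without GF-AOM replicate 5. Cholesterol synthesis genes were above 0 in 15 of 20 (median 0.03, all 20 intervals inside), and in 5 or 7 when replicate 1 of GF-AOMS or of GF-AOM was left out. Nuclear respiratory chain genes were above 0 in 21 of 25 (median 0.07), and in 12 once GF-AOMS replicate 2 was left out. Mitochondrially encoded genes were above 0 in 5 of 13 (median -0.02, 12 of 13 intervals inside), and in 0 to 10 when 1 library was left out. Clock genes were below 0 in 9 of 11 (median -0.11), with Tef (-0.28, SE 0.17) and Nr1d2 (-0.25, SE 0.16) lowest. Without GF-AOM replicate 1, 6 of the 11 clock genes were above 0 with a median of 0.0031.

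Whether the leading genes pass depended on the tool. Spp1 had an adjusted p of 0.000387 by DESeq2, 0.0307 by limma voom with sample quality weights and 0.0350 by edgeR with the ribosomal protein share of each library as a term. Rhox5 had an adjusted p of 0.0264 by DESeq2 and of 0.178 or more under every other setting. Uimc1 reached 0.168 by DESeq2 and Ccl2 reached 0.404, their lowest. The size of the 4 differences moved little by comparison, and every setting that tested them gave a positive value.

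**Figure D5:**
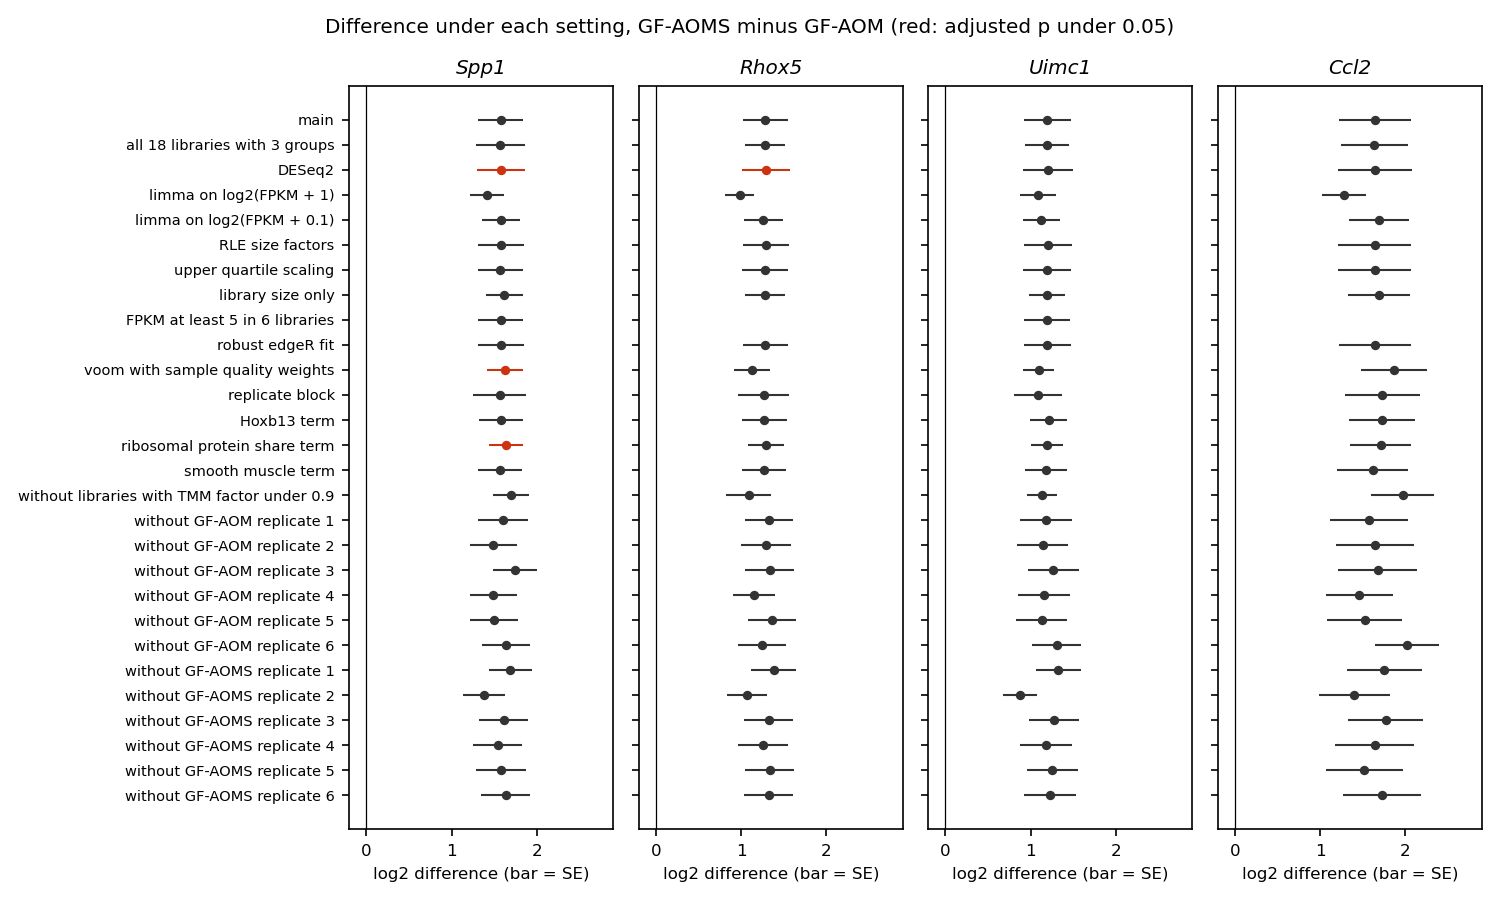
Log2 difference, GF-AOMS minus GF-AOM, of Spp1, Rhox5, Uimc1 and Ccl2 (points, with SE bars) under the edgeR test and each other setting named on the left, including the fits that leave out 1 library. Red points have an adjusted p under 0.05 (3 for Spp1 and 1 for Rhox5), and all points lie above 0.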

How the data were processed

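Colorectal RNA was sequenced from strand-specific, ribosomal-RNA-depleted libraries, from RNA of integrity number 7 or above, per the labels' protocols. The deposited table holds whole-number read counts per gene and the FPKM values the authors computed for the same genes, per the file headers. featureCounts, DESeq2 and build GRCm39 are named in the submitters' processing notes; for the aligner, versions and strand setting of the counting, nothing is given in the sources used here. Gene positions come from the table and fit GRCm38 (10890 identifiers found in GENCODE M21). Each gene reaches an FPKM of 1 in 15 or more of the 18 libraries, so genes expressed in few libraries are not analysed here, and low counts needed no further filter.

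Counts of the 12 libraries were fitted with edgeR 4.0.16 in R 4.3.3 (TMM scaling, quasi-likelihood test, no covariate, two-sided, 10 residual degrees of freedom before moderation). Control libraries were left out of the fit because earlier results of these data place them at different colon positions, and their CPM values use TMM factors over all 18 libraries. Benjamini-Hochberg adjusted p under 0.05 over 10897 genes counted as a call. Standard errors are Wald errors, and a prior count of 2 enters log2 CPM. The tests were also run on simulated counts, with an outcome not reported here. Each gene was drawn independently there, without the spread that genes share across these libraries, so that check does not cover such spread. limma 3.58.1 (on FPKM and with voom), DESeq2 1.42.0, other scalings, a stricter FPKM filter, added terms and leaving out libraries were the alternatives. Library totals of 48.95 M to 65.36 M counts (M, mega) leave little counting error for all but the lowest genes, and the spread between libraries sets the precision.

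Named genes are the 10 with the smallest p in each direction among genes with a mean of at least 1 CPM in the higher group, the genes whose groups do not overlap, the 2 smallest-p members of each list with at least 4 measured members, and 26 set genes (24 measured). Pseudogenes, clone names and variable segments of immunoglobulins are only counted. Other genes, such as further list members and those beyond 2-fold, were chosen after their values were seen, and some list members are not reported here. Members, lists (42, with 602 of 769 genes measured) and this rule were chosen with earlier results of these data known.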

Additional observations from a re-analysis of the deposited data

Results flagged for a closer look

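For each named gene and library measure, a library was looked for whose distance to its nearest neighbour took up most of the range of its group of 6. Of 224 such groups of values 26 had one, and GF-AOMS replicate 2 accounted for 10 of them and GF-AOM replicate 6 for 5. The rule gives about 1 in 20 for independent, normally distributed values. These are CPM values of genes that vary together, and all flags but that of Ahr were the highest of their group. The count is therefore not set against chance. GF-AOMS replicate 2 was far above the rest of its group for Serpinf1 (15.5 CPM), Itgae of intraepithelial T cells (13.2 CPM), Mmp9 (15.8 CPM), Mcpt2 (130 CPM) and Uimc1 (466 CPM). The same library was far above for Il1b (23.1 CPM), Reg3g (120 CPM), Alox5ap of leukotriene synthesis (42.8 CPM) and Reg3b (478 CPM), and far below for Ahr (11.7 CPM).

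GF-AOM replicate 6 was far above its group for Hmox1 (20.6 CPM), Igsf23 (51.0 CPM), Cx3cr1 (34.5 CPM), the T cell gene Cd8b1 (10.8 CPM) and Reg3b (830 CPM). GF-AOM replicate 1 was far above for the endothelial genes Pecam1 (89.2 CPM) and Emcn (15.3 CPM) and for Vegfa (34.8 CPM). GF-AOM replicate 2 was far above for Mcpt1 (101 CPM), Mcpt2 (40.2 CPM) and Chac1 (19.6 CPM), and GF-AOM replicate 5 for Guca2b (65.4 CPM).

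In the other smoke libraries, replicate 1 was far above for the clock gene Nr1d2 (92.8 CPM) and the matrix gene Postn (198.8 CPM), replicate 3 for the p53 target Trp53inp1 (111.3 CPM) and replicate 5 for Myc (56.9 CPM).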

How the results depend on the processing

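The count of genes passing adjustment was 0 under 24 of 27 other settings, 2 higher genes by DESeq2, and 1 by voom with sample quality weights and 1 with a ribosomal protein share term; lower calls were 0 throughout. Leaving out any 1 library gave 0 calls. Genes at an unadjusted p under 0.05 ran from 80 to 336 when 1 library was left out, 336 when GF-AOMS replicate 2 was the one left out and 256 for replicate 1 of that group, against 131 with all, and were 85 with library size only, 52 with the stricter FPKM filter, 953 by voom, 361 with the ribosomal protein term and 221 with the smooth muscle term. The share of genes above 0 was 44.1% with the smooth muscle term and 62.1% with library size only, against 54.5%. Intervals inside 2-fold numbered 6213 under the stricter FPKM filter, where only 6864 genes were tested.

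The labels do not say whether replicate numbers pair the libraries. Over all genes, deviations of same-numbered libraries correlated at -0.226, -0.587, -0.619, 0.31, 0.073 and -0.464, and no library correlated best with its own number. A pairing that touches few genes would not show in these values. The replicate block gave 0 calls and 59 genes at an unadjusted p under 0.05. With it the SE fell for Mcpt2 (0.99 to 0.44), Mcpt1 (1.06 to 0.52) and Cyp2c55 (0.43 to 0.29). It rose for Spp1 (0.27 to 0.31), Ramp2 (0.33 to 0.39) and Csf1r (0.13 to 0.16).

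Directions turned for genes with small or unsteady differences, and the cause was not tested. By limma on log2(FPKM + 1) and log2(FPKM + 0.1) the log2 difference was 0.0093 and 0.11 for Cd8b1, -0.0153 and -0.0432 for Tubb3, and 0.93 and 0.96 for Reg3b. By voom it was -0.26 for Cnn1, -0.0403 for Itgae, 0.13 for Pecam1, 0.0561 for Hoxa13, 0.0764 for Cd8b1, -0.22 for Actg2, -0.40 for Tubb3 and 0.53 for Reg3b. The replicate block gave 0.14 for Cd8b1, -0.0672 for Tubb3 and 1.48 for Reg3b. With a Hoxb13 term Pigr was at -0.0172, Cd8b1 at 0.0029, Reg3b at 1.02 and Hoxb13 itself, by construction, at -0.0003. Reg3b was at 0.39 with the ribosomal protein term, and with the smooth muscle term Reg3g was at -0.16 and Tubb3 at -0.0143. Without the 3 libraries with a TMM factor under 0.9 the values were -0.0465 for Cnn1, 0.0157 for Ugt2b35, 0.34 for Cd8b1, -0.0304 for Actg2, -0.0883 for Tubb3, 0.10 for mt-Co3, 0.16 for Insl5 and 1.16 for Reg3b.

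Leaving out 1 library gave -0.15 to 0.0567 for Nqo1, -0.17 to 0.0754 for Pecam1, -0.46 to 0.84 for Reg3g, -0.15 to 0.0239 for Hoxa13, -0.23 to 0.0148 for mt-Nd6, -0.14 to 0.0414 for Cd44, -0.44 to 0.16 for S100b and -0.67 to 0.0412 for Insl5. It gave -0.12 to 0.23 for Tubb3, -0.52 to 0.36 for Cd8b1, -0.76 to 2.07 for Reg3b, -0.16 to 0.50 for Cnn1, -0.0891 to 0.28 for Itgae, -0.10 to 0.62 for Actg2, -0.0155 to 0.44 for Alox5ap, -0.0056 to 0.22 for Pnpla2 and -0.0255 to 0.44 for Tap1. Group differences in library measures, none past a test, ran from -0.258 to 0.128 percentage points for mitochondrial share, -4.20 to 0.714 CPM for Hoxa13, -0.0101 to 0.0827 for the TMM factor and -3.25 to 0.604 percentage points for ribosomal protein share. Depth limits only the lowest genes, such as mt-Tr.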

Other observations

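Gene classes counted as a whole differed in direction. Over all 10897 genes 54.5% were above 0, and at an unadjusted p under 0.05 there were 0.56% higher and 0.642% lower. Class values are given for the main fit only. Over the settings the share of all genes above 0 ran from 44.1% to 62.1%, and how the classes move with it was not tested. Of 786 pseudogenes 573 were above 0 (median log2 difference 0.12), and they made up 28 of the 61 genes at an unadjusted p under 0.05 on the higher side. Of 150 immunoglobulin variable and joining segments 104 were below 0 (median -0.30), 11 of them at an unadjusted p under 0.05, and their differences reached from -2.07 to 2.47. Of 33 genes of the mitochondrial genome, transfer RNAs included, 26 were below 0 (median -0.18), 1 of them, mt-Tr, at an unadjusted p under 0.05. The 80 ribosomal protein genes were split, 26 above and 54 below 0 (median -0.02), with 0 at an unadjusted p under 0.05.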
